A study of Homo sapiens with 6 samples.

Results

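SLC7A11, the enzymes of glutathione synthesis and the best known targets of the transcription factor NRF2 were described in RPE1 cells with and without depletion of OFD1. The set holds 10 genes, SLC7A11, GCLC, GCLM, NQO1, HMOX1, TXNRD1, SRXN1, GPX4, FTH1 and NFE2L2, out of 67130 genes in the expression table. They were found by gene name, and all 10 lay on the primary chromosomes and averaged at least 1 FPKM across the 6 samples. The set was chosen by name with the difference between the groups of these samples already known, above all that of SLC7A11, so the differences of the 10 genes are given as a description and without a test.

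RPE1 cells are human cells of the retinal pigment epithelium that were immortalized with hTERT. The line used here carries a lentiviral Tet-On construct with a short hairpin RNA (shRNA) to OFD1, a protein of centrioles and centriolar satellites, which doxycycline switches on. RNA-seq was done on 3 control samples, for which no doxycycline is listed, and 3 samples given 200 ng/mL doxycycline (shOFD1), each at 72 h. The labels give the genotype of both groups as WT. Both groups carry the shRNA construct, and the methods do not say whether the line is a single clone. No sample received doxycycline without the shRNA, so an effect of the drug and of the depletion cannot be told apart. The study reports that doxycycline inhibited the proliferation of its inducible line, and describes the depleted cells as quiescent. The groups may thus also differ in cell cycle state, and its part in the differences below was not tested. The study describes the samples as biological replicates, without saying whether each was a separate culture.

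Cells import cystine through a transporter made of SLC7A11 (xCT) and the shared heavy chain SLC3A2, and reduce it to cysteine. Cysteine is joined to glutamate by glutamate-cysteine ligase, which consists of a catalytic subunit (GCLC) and a modifier subunit (GCLM), and glutathione synthetase (GSS) then adds glycine. NRF2, encoded by NFE2L2, is held at a low level by KEAP1, and after oxidative or electrophilic stress it activates genes with an antioxidant response element (ARE). Retinal pigment epithelium is exposed to light and to oxidized lipids, and glutathione and NRF2 are known for their role in its defence.

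All values are FPKM, fragments per kilobase of transcript, scaled to the mapped fragments of each sample, so that levels of different genes can be compared per length. The table holds no read counts, so the precision rests on the spread between the 3 replicates of a group. Differences are log2 fold changes of FPKM + 0.1, shOFD1 minus control, which understate the change of genes near 0. They came from a limma fit over the 12025 genes that averaged at least 1 FPKM, and a gene was called at an adjusted p under 0.05 over all of these. Each SE is that of this fit, which draws the spread of a gene towards the trend of spread with level over all genes. For SLC7A11 the SE was 0.236 with this trend and 0.163 without it. OFD1 itself had 3.34, 3.62 and 3.44 FPKM in control and 0.795, 0.763 and 1.43 FPKM in shOFD1 samples, a log2 fold change of -1.75 (SE 0.255, limma adjusted p = 0.00085). All shOFD1 values lay below all control values (p = 0.1 by a two-sided exact permutation test, and 3 against 3 samples cannot give less). The labels name the retina as tissue. Of 8 markers of neural retina, 5 were listed at 0 in all samples and all 8 were under 1 FPKM. Of 12 markers of retinal pigment epithelium, 8 were under 1 FPKM in every sample, DCT and TTR were listed at 0, and MITF and OTX2 were the 2 markers that averaged at least 1 FPKM, while KRT8 and KRT18 together summed to between 254 and 407 FPKM. In shOFD1 replicate 2 the FPKM values of all genes summed to 493510, against 408302 to 444337 in the other samples, and the share of mitochondrially encoded genes in that sum was 8.66% to 13.8% in control and 15.6% to 19.3% in shOFD1 samples. The part of either in the differences below was not tested.

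Of the 10 genes, 7 have an entry in the RefSeq promoter table (build GRCh38.p14), and SLC7A11, HMOX1 and FTH1 do not. The ARE core TGACNNNGC was searched on both strands of windows from 250 bases upstream to 50 bases downstream of each annotated start. The 7 genes have 11 such windows. Sites farther from a start were not searched, so a gene without a match here may have an ARE elsewhere. The core was found for GCLM and TXNRD1, and in 13.3% of all 35116 promoters of the table, a share of windows and not of genes. GCLM had 1 match and TXNRD1 had 3, of which 1 lay upstream of the start shown here, 1 lay on the strand of the gene 91 bases upstream of another start, and 1 lay across that other start. These stretches are shown because GCLM was lower in every shOFD1 sample while the values of TXNRD1 overlapped between the groups, as described below, and each holds a match upstream of a start. The first lies on the minus strand of chr1:93909431-93909489 with the match 26 bases upstream of the start, the second on the plus strand of chr12:104286905-104286963 with the match 94 bases upstream of a start. Both are written 5′ to 3′ on the strand of the gene, and the capitals mark the ARE core, which is here on the opposite strand.
GCLM: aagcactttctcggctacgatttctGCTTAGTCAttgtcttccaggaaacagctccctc
TXNRD1: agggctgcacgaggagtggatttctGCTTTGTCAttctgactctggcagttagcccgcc
Neither match overlapped the AP-1 site TGACTCA, whose first bases the ARE core shares. The amino acid response core TGATGNAA, a site of ATF4, was not found in the windows of these 7 genes and was found in 3.62% of all promoters. A match of letters is a description and not a measured binding site.

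In control cells the 10 genes spanned more than 2 orders of magnitude. FTH1, the ferritin heavy chain that stores iron, was the highest with 695 ± 80.6 FPKM (SD, n = 3). GPX4, the peroxidase that reduces lipid peroxides with glutathione, followed with 218 ± 30.9 FPKM (SD, n = 3). Next were TXNRD1 with a mean of 113 FPKM, NQO1 with 42.5, NFE2L2 with 27.8 and SRXN1 with 17.1 FPKM. GCLC (5.29), GCLM (5.17), HMOX1 (4.44) and SLC7A11 (2.76 FPKM) were the lowest. Each gene lay above the next in every control sample except for GCLC and GCLM, whose values overlapped. In shOFD1 samples GCLC lay above GCLM in every sample, and every HMOX1 value (mean 6.58 FPKM) lay above every GCLM value (mean 2.74 FPKM), the reverse of their order in control.

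**Figure D1:**
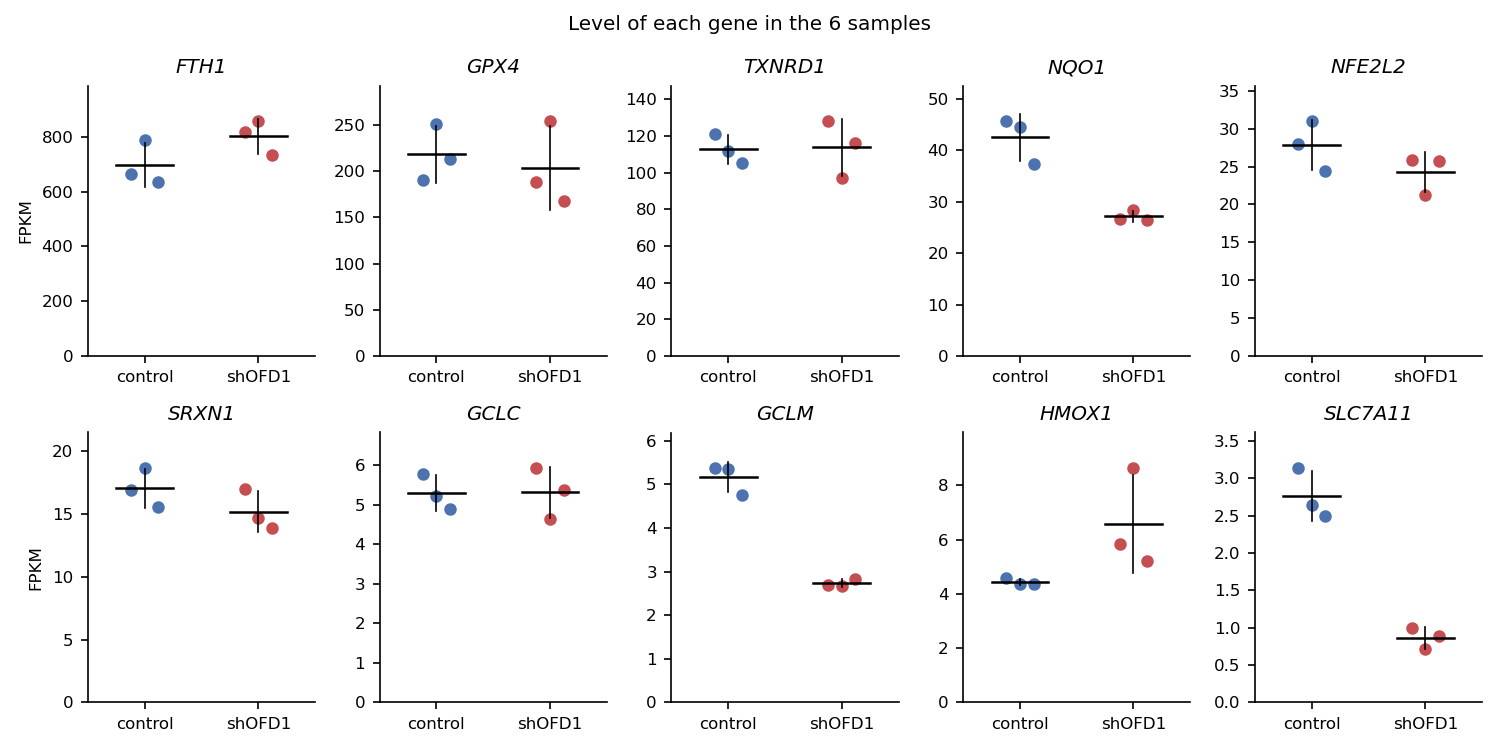
FPKM of the 10 genes (y axis, linear and from 0, a scale of its own for each gene) in the 3 control samples (blue) and the 3 shOFD1 samples (red), ordered by control level. Horizontal lines are group means and vertical lines are SD. SLC7A11, GCLM and NQO1 were lower in every shOFD1 sample than in any control sample and HMOX1 was higher in every one, while the groups of the other 6 genes overlapped.

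SLC7A11 (ENSG00000151012, chromosome 4 from 138164097 to 138242349, minus strand, GRCh38), the cystine-importing subunit, had 3.14, 2.64 and 2.50 FPKM in control and 0.993, 0.710 and 0.887 FPKM in shOFD1 samples. The highest shOFD1 value was thus well under the lowest control value. The group means were 2.76 ± 0.336 and 0.863 ± 0.143 FPKM (SD, n = 3 each), or 31.3% of control, and the log2 fold change was -1.57 (SE 0.236). With each sample left out in turn it lay between -1.67 and -1.45, and with a pseudocount of 1 it was -1.01. SLC7A11 passed the limit of 1 FPKM through its control values, since all shOFD1 values were under 1. In bulk RNA, fewer cells that express a gene and less of its RNA per cell cannot be told apart. An antisense RNA in the same locus, SLC7A11-AS1, had a mean of 0.0342 FPKM in control and 0.0293 FPKM in shOFD1 samples.

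The heavy chain SLC3A2, which pairs with SLC7A11 at the membrane, had 70.4, 66.6 and 77.8 FPKM in control and 68.6, 81.5 and 61.6 FPKM in shOFD1 samples. The groups overlapped and the log2 fold change was -0.028 (SE 0.139, limma adjusted p = 0.92). Within each sample, the ratio of SLC7A11 to SLC3A2 was 0.0446, 0.0397 and 0.0321 in control and 0.0145, 0.00871 and 0.0144 in shOFD1 samples. Such a ratio does not depend on how the samples are scaled to each other. The mean ratio in shOFD1 samples was 0.323 of that in control.

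GCLM (ENSG00000023909, chromosome 1 from 93885199 to 93909456, minus strand), the modifier subunit that raises the affinity of the ligase for its substrate, had 5.38, 5.36 and 4.76 FPKM in control and 2.70, 2.67 and 2.84 FPKM in shOFD1 samples. The 3 shOFD1 values were close to each other and all under the control values. The mean was 53.0% of control, with a log2 fold change of -0.89 (SE 0.154). GCLC (ENSG00000001084, chromosome 6 from 53497341 to 53616970, minus strand), the catalytic subunit, had 5.77, 5.22 and 4.88 FPKM in control and 5.93, 4.64 and 5.37 FPKM in shOFD1 samples. Its groups overlapped, with a mean of 5.29 ± 0.451 against 5.31 ± 0.65 FPKM (SD, n = 3 per group) and a log2 fold change of 0.0031 (SE 0.155). The ratio of GCLM to GCLC was 0.933, 1.03 and 0.976 in control and 0.456, 0.575 and 0.529 in shOFD1 samples. Both subunit mRNAs were therefore at about equal FPKM in control, and GCLM was at a mean of 0.520 of GCLC after doxycycline. GSS, the next enzyme, had 25.9 ± 3.41 FPKM in control and 25.6 ± 3.29 FPKM in shOFD1 samples (SD, n = 3 per group), with a change of -0.014 in log2 (limma adjusted p = 0.96).

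NQO1 (ENSG00000181019, chromosome 16 from 69706996 to 69726668, minus strand), a quinone reductase and the most used reporter of NRF2 activity, had 45.7, 44.6 and 37.3 FPKM in control and 26.7, 28.4 and 26.4 FPKM in shOFD1 samples. All shOFD1 values lay below all control values. The mean was 63.9% of control, and the log2 fold change was -0.64 (SE 0.128). HMOX1 (ENSG00000100292, chromosome 22 from 35380361 to 35394214, plus strand), which degrades heme and is a target of NRF2 as well, had 4.57, 4.38 and 4.36 FPKM in control and 5.85, 8.65 and 5.23 FPKM in shOFD1 samples. Every shOFD1 value was above every control value, with replicate 2 far above the other two. The log2 fold change of HMOX1 was 0.52 (SE 0.188), 0.31 without shOFD1 replicate 2 and 0.67 without shOFD1 replicate 3.

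For TXNRD1 and SRXN1, the genes of the set in the thioredoxin branch, the groups overlapped. TXNRD1 (ENSG00000198431, chromosome 12 from 104215779 to 104350307, plus strand), the selenoprotein that reduces thioredoxin, had 121, 112 and 105 FPKM in control and 128, 97.0 and 116 FPKM in shOFD1 samples, a log2 fold change of 0.0076 (SE 0.14). SRXN1 (ENSG00000271303, chromosome 20 from 646615 to 653200, minus strand), which repairs overoxidized peroxiredoxins, had 16.9, 18.7 and 15.6 FPKM in control and 17.0, 14.7 and 13.9 FPKM in shOFD1 samples, a log2 fold change of -0.17 (SE 0.136). A processed pseudogene, RPL18AP3, lies on the same strand within TXNRD1 and had a mean of 102 FPKM in control and 146 FPKM in shOFD1 samples, and how shared reads were divided is not known. The ratio of NQO1 to TXNRD1 in each sample was 0.377, 0.397 and 0.356 in control and 0.208, 0.293 and 0.228 in shOFD1 samples, without overlap of the groups.

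GPX4 (ENSG00000167468, chromosome 19 from 1103926 to 1106791, plus strand) had 190, 251 and 213 FPKM in control and 188, 254 and 168 FPKM in shOFD1 samples, a log2 fold change of -0.11 (SE 0.174) that was -0.28 without shOFD1 replicate 2 and 0.013 without shOFD1 replicate 3. FTH1 (ENSG00000167996, chromosome 11 from 61959718 to 61967634, minus strand) had 666, 787 and 634 FPKM in control and 817, 857 and 732 FPKM in shOFD1 samples, a log2 fold change of 0.21 (SE 0.149). The groups of both overlapped, and in both genes replicate 2 was the highest of its group. For FTH1 the sign depended on scaling, with -0.069 after quantile normalization. FTH1 has 25 pseudogene copies in the table, which summed to 15.6 FPKM in control and 22.9 FPKM in shOFD1 samples, and overlaps BEST1 on the opposite strand, so its value is uncertain to that extent. The ratio of FTH1 to FTL, the ferritin light chain, was 0.927 ± 0.0343 in control and 0.811 ± 0.0648 in shOFD1 samples (SD, n = 3 per group).

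NFE2L2 (ENSG00000116044, chromosome 2 from 177227595 to 177392697, minus strand) had 28.0, 31.0 and 24.4 FPKM in control and 25.9, 21.2 and 25.8 FPKM in shOFD1 samples. The groups overlapped, and the log2 fold change was -0.19 (SE 0.141). NRF2 is known to be set mainly by protein stability, which mRNA does not measure.

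Among the 10 genes, all shOFD1 values lay below all control values in 3 (SLC7A11, GCLM and NQO1), as they did in 22.3% of genes tested, and in 1 gene (HMOX1) all lay above, as in 13.8% of genes tested. The median log2 fold change of the 10 genes was -0.14, against -0.032 over all genes tested. Since the genes were chosen with this contrast known, nothing is read from these counts. SLC7A11, GCLM and NQO1 were lower and HMOX1 was higher under all scalings tried. Rescaling each sample to an equal sum (TPM) moved the median of all genes from -0.032 to -0.18, and gave log2 fold changes of -1.71 for SLC7A11, -1.03 for GCLM, -0.79 for NQO1 and 0.38 for HMOX1. GCLC (-0.14 with TPM and 0.13 after quantile normalization) and TXNRD1 (-0.14 with TPM and 0.063 with median-of-ratios scaling) changed sign between scalings.

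**Figure D2:**
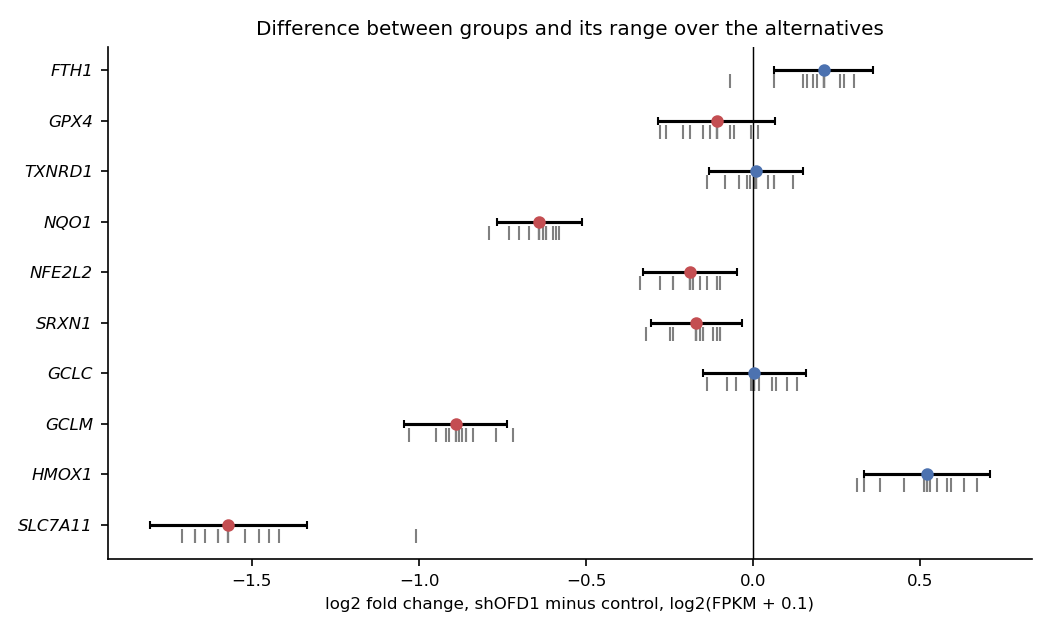
Log2 fold change of each gene (x axis, shOFD1 minus control, of FPKM + 0.1), with red points below 0 and blue points above 0, bars for the SE and grey ticks below for the alternative fits of the same value. SLC7A11 (-1.57), GCLM (-0.89) and NQO1 (-0.64) stood to the left of 0 and HMOX1 (0.52) to the right in every alternative, and the tick of SLC7A11 at -1.01 is that of a pseudocount of 1.

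**Figure D3:**
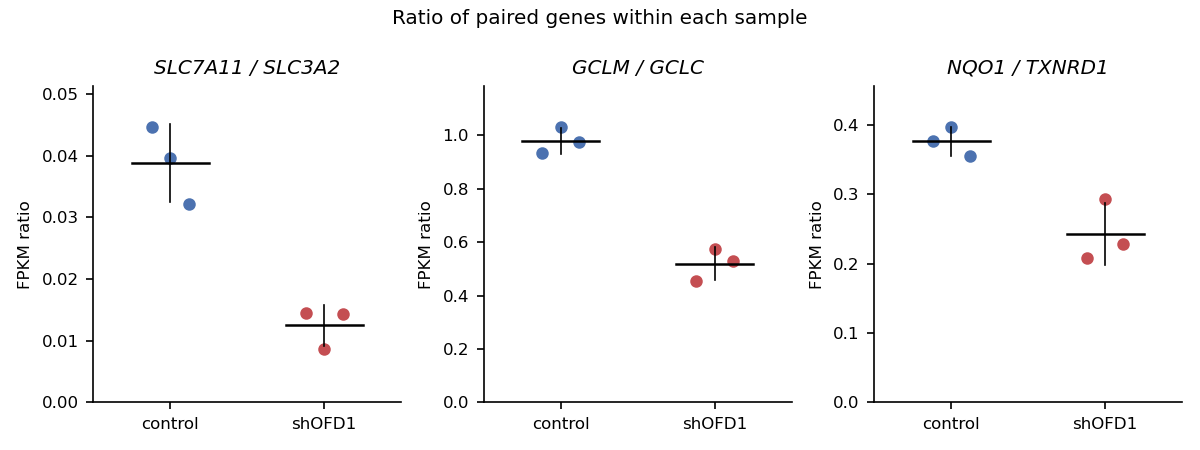
Ratio of FPKM within each sample (y axis, from 0) for SLC7A11 to SLC3A2, GCLM to GCLC and NQO1 to TXNRD1, in control (blue) and shOFD1 samples (red), with the group mean and SD as lines. In each panel the 3 shOFD1 ratios lay below the 3 control ratios.

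Over the 6 samples, the genes whose log2 values followed SLC7A11 most closely were BUD13 (Pearson r = 0.999), TMEM97 (0.9978), GAB2 (0.9971), ASPH (0.9965) and ARSJ (0.9959). All 5 were lower in shOFD1 samples, with log2 fold changes between -1.31 and -0.75. Within the set, the correlation with SLC7A11 was 0.98 for GCLM and 0.95 for NQO1, 0.67 for NFE2L2 and 0.18 for GCLC. With 6 points that fall into 2 groups, such a correlation mostly restates the difference between the groups.

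The wider pathway was followed in 146 other redox genes in 8 lists, of which 127 averaged at least 1 FPKM and were tested. Of these 14 were called lower and 11 higher (limma, adjusted over all genes tested), or 11.0% and 8.66%, against 11.9% and 5.07% of all genes tested. Their median log2 fold change was -0.014, against -0.032 over all genes tested. The counts moved with single samples, to 9 lower and 5 higher without control replicate 1 or without control replicate 3, to 9 lower without control replicate 2 and to 6 higher without shOFD1 replicate 1. With TPM the split was 20 lower and 6 higher, and with median-of-ratios scaling 12 lower and 14 higher. All gene lists, here and below, were chosen with earlier results of these data known. Their counts, shares and medians are thus given as a description, and nothing is read from them. The shares of all genes tested, 11.9% lower and 5.07% higher, are those to set beside the shares of each list below.

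Among 12 genes that control NRF2 or share its DNA sites, 1 (8.33%) was called lower, NFE2L1, and 0 were called higher. NFE2L1 encodes NRF1, a relative of NRF2 that controls proteasome genes. It had 68.9, 60.6 and 75.0 FPKM in control and 39.6, 31.5 and 34.0 FPKM in shOFD1 samples, a log2 fold change of -0.96 (SE 0.138, limma adjusted p = 0.00078). KEAP1, the adaptor that marks NRF2 for degradation, had 24.6, 25.9 and 25.6 FPKM in control and 20.1, 20.8 and 17.6 FPKM in shOFD1 samples. The groups of KEAP1 did not overlap, but its log2 fold change of -0.38 missed the threshold (limma adjusted p = 0.059). KEAP1 passed it with TPM scaling (-0.53, limma adjusted p = 0.012), after quantile normalization (-0.33, 0.049), with array weights (-0.40, 0.0078) and without shOFD1 replicate 2 (-0.43, 0.02). BACH1, named after its values were seen, had 10.3, 11.4 and 9.61 FPKM in control and 19.1, 11.4 and 17.4 FPKM in shOFD1 samples. Its groups overlapped, and its log2 fold change of 0.58 missed the threshold (limma adjusted p = 0.056). With median-of-ratios scaling, quantile normalization, array weights or a filter at 5 FPKM, 1 gene of this list was called higher. The median of this list was 0.031.

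Of 12 tested genes of cystine supply and of glutathione synthesis, turnover and transport, 2 (16.7%) were called lower and 1 (8.33%) higher. The median log2 fold change was 0.046. CHAC1, which degrades glutathione inside the cell, rose from 1.86, 1.58 and 1.54 FPKM to 4.2, 4.11 and 4.32 FPKM, a log2 fold change of 1.30 (SE 0.177, limma adjusted p = 0.00054). ABCC1, which exports glutathione conjugates, fell from 26.0, 19.5 and 29.7 FPKM to 12.5, 7.91 and 11.3 FPKM, a log2 fold change of -1.24 (SE 0.199, limma adjusted p = 0.0016). SLC25A40, a mitochondrial carrier related to the importer of glutathione, fell by 0.81 in log2 (limma adjusted p = 0.01, and 0.052 without control replicate 2). All shOFD1 values lay above all control values in 3 genes of this list and below them in 2. CBS and CTH, named after their values were seen, were among the 3 but not called (limma adjusted p = 0.066 and 0.13). The count called higher was 3 with array weights or without the variance trend. It was 2 with median-of-ratios scaling or quantile normalization.

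Of 23 tested enzymes that use glutathione, 1 (4.35%) was called lower and 2 (8.70%) higher, with a median log2 fold change of 0.07. MGST2, a membrane-bound glutathione transferase, rose by a change of 0.54 in log2 (limma adjusted p = 0.013, and 0.082 without control replicate 1 and 0.066 without control replicate 3). GSTCD fell by 0.79 in log2 (limma adjusted p = 0.025), and missed the threshold without any one of the control replicates (0.058 to 0.096). GSTM3, named after its values were seen, was the other gene called higher (0.75, limma adjusted p = 0.04), although its groups overlapped. GSTM3 missed the threshold with TPM scaling (0.12), without control replicate 1 (0.13), control replicate 3 (0.14), shOFD1 replicate 1 (0.11) or shOFD1 replicate 3 (0.14). GSR, which regenerates glutathione with NADPH, had 11.6, 14.8 and 12 FPKM in control and 10.9, 9.62 and 10.3 FPKM in shOFD1 samples, a change of -0.31 in log2 (limma adjusted p = 0.16).

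Of 21 tested genes of thioredoxins, peroxiredoxins and oxidant removal, 4 (19.0%) were called higher and 1 (4.76%) lower. The median log2 fold change was 0.11. The sestrins SESN1 and SESN2, which are p53 and stress targets that restrain mTORC1, were among those higher. SESN1 rose from 4.57, 4 and 4.23 FPKM to 10.8, 9.11 and 9.07 FPKM, a log2 fold change of 1.16 (SE 0.144, limma adjusted p = 0.00031). SESN2 rose from 3.95, 3.28 and 3.91 FPKM to 7.96, 6.53 and 6.01 FPKM, a log2 fold change of 0.86 (SE 0.163, limma adjusted p = 0.0045). PRDX3, the mitochondrial peroxiredoxin (0.51), and MSRB1, a selenoprotein that repairs oxidized methionine (0.62), rose with limma adjusted p-values of 0.021 and 0.024, which went to 0.12 for PRDX3 without control replicate 1 and to 0.12 for MSRB1 without control replicate 3. PRDX3 also missed the threshold without control replicate 3 (0.11), shOFD1 replicate 1 (0.062) or shOFD1 replicate 3 (0.051), and MSRB1 without control replicate 1 (0.06) or shOFD1 replicate 1 (0.067). TXNIP, the inhibitor of thioredoxin, fell by 0.59 in log2 (limma adjusted p = 0.019, and 0.099 without control replicate 1 and 0.059 without control replicate 3). TXN itself had 220 ± 28.4 FPKM in control and 273 ± 49.2 FPKM in shOFD1 samples (SD, n = 3 per group), with a limma adjusted p of 0.23.

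The list of NADPH supply and other NRF2 target enzymes had the lowest median, -0.23, against -0.032 over all genes tested. Of its 16 tested genes, 13 had a log2 fold change below 0. In this list 3 genes (18.8%) were called lower and 1 (6.25%) higher, against 11.9% and 5.07% of all genes tested. In 8 of 16 all shOFD1 values lay below all control values, against 22.3% of all genes tested. CBR3, a carbonyl reductase, fell from 21.0, 28.1 and 22.9 FPKM to 8.88, 16.1 and 10.6 FPKM, a log2 fold change of -1.05 (SE 0.206, limma adjusted p = 0.0055). UGDH, which makes UDP-glucuronate, fell from 42.4, 49.7 and 42.3 FPKM to 31.6, 26.9 and 30.1 FPKM, a log2 fold change of -0.60 (SE 0.129, limma adjusted p = 0.0088). ABHD4, a lipid hydrolase, was the gene called higher, from 15.9, 16.7 and 15.4 FPKM to 30.0, 31.6 and 27.8 FPKM, a log2 fold change of 0.89 (SE 0.122, limma adjusted p = 0.00054). The count of genes called lower was 6 with TPM scaling. AKR1C2 and ALDH3A1 were listed at 0 in all samples.

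Of 20 tested iron and heme genes, 2 were called lower and 1 higher, with a median log2 fold change of -0.066. SLC40A1, the iron exporter ferroportin, fell from 2.93, 3.75 and 3.59 FPKM to 2.12, 1.33 and 1.98 FPKM, a change of -0.90 in log2 (limma adjusted p = 0.017, and 0.072 without control replicate 2 and 0.074 without control replicate 3). SLC48A1, a heme transporter, fell by 0.58 in log2 (limma adjusted p = 0.039), and missed the threshold without any one of the control replicates (0.063 to 0.17), without shOFD1 replicate 1 (0.064) and without shOFD1 replicate 3 (0.14). FBXL5, the iron-sensing ligase that degrades iron regulatory protein, rose by a change of 0.54 in log2 (limma adjusted p = 0.014), and missed the threshold without control replicate 1 (0.08), control replicate 3 (0.072) or shOFD1 replicate 1 (0.06). FTL had 709, 826 and 714 FPKM in control and 936, 1152 and 899 FPKM in shOFD1 samples, which did not overlap, with a change of 0.40 in log2 (limma adjusted p = 0.099, and 0.02 with array weights). TFRC, the transferrin receptor, had a change of -0.18 in log2 (limma adjusted p = 0.52).

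Ferroptosis is the iron-dependent death that cystine import and GPX4 oppose. In the list of lipid peroxidation and ferroptosis, 3 of 14 tested genes (21.4%) were called lower and 2 (14.3%) higher. The median log2 fold change was 0.016. SCD, which makes monounsaturated fatty acids, fell from 217, 186 and 210 FPKM to 98.7, 74.7 and 94.3 FPKM, a log2 fold change of -1.20 (SE 0.143, limma adjusted p = 0.00024). AIFM2, or FSP1, which reduces coenzyme Q and opposes lipid peroxidation independently of GPX4, fell from 9.25, 10.7 and 10.9 FPKM to 5.14, 6.01 and 4.93 FPKM, a log2 fold change of -0.93 (SE 0.144, limma adjusted p = 0.0013). ACSL4, which puts polyunsaturated fatty acids into membrane lipids and favours ferroptosis, fell by 0.55 in log2 (limma adjusted p = 0.045), and missed the threshold when any one of the 6 samples was left out (0.053 to 0.15). PTGS2, a prostaglandin synthase often used as a marker of ferroptosis, rose from 1.24, 1.78 and 1.23 FPKM to 4.11, 2.37 and 4.05 FPKM, a log2 fold change of 1.23 (SE 0.258, limma adjusted p = 0.0077). SAT1, a polyamine-acetylating enzyme, rose by a change of 0.42 in log2 (limma adjusted p = 0.038), and missed the threshold without control replicate 1 (0.21), control replicate 3 (0.14), shOFD1 replicate 1 (0.087) or shOFD1 replicate 3 (0.067). Of the called genes, AIFM2, known to oppose lipid peroxidation, and ACSL4, known to favour it, were thus both lower. SCD was lower as well, while PTGS2 and SAT1 were higher.

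GPX4 and TXNRD1 contain selenocysteine. Of 9 tested genes of selenoprotein synthesis and selenium supply, 1 (11.1%) was called lower and 0 higher, and the median log2 fold change was -0.033. LRP8, a receptor that takes up selenoprotein P, fell from 5.77, 5.25 and 5.84 FPKM to 3.13, 2.79 and 2.62 FPKM, a log2 fold change of -0.96 (SE 0.156, limma adjusted p = 0.0017).

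SLC7A11 is also a known target of ATF4, the transcription factor of amino acid shortage, and so are CHAC1 and SESN2. In a list of 13 genes of ATF4 and the amino acid response, 3 (23.1%) were called higher and 1 (7.69%) lower, against 5.07% and 11.9% of all genes tested. The median was 0.22, against -0.032 over all genes tested. The counts of this list depended on the scaling. With TPM scaling 0 genes were called higher and 3 lower, and after quantile normalization 4 higher and 1 lower. With no filter on the mean 0 were called in either direction. ATF4 rose from 156, 169 and 158 FPKM to 233, 227 and 202 FPKM, a log2 fold change of 0.45 (SE 0.126, limma adjusted p = 0.031), and missed the threshold without control replicate 1 (0.16), control replicate 3 (0.13) or shOFD1 replicate 1 (0.11). ASNS, asparagine synthetase, rose from 7.26, 5.76 and 7.28 FPKM to 10.8, 8.71 and 10.9 FPKM, a change of 0.58 in log2 (limma adjusted p = 0.027), and missed the threshold in 5 of the 6 fits that left out a sample (0.06 to 0.097), the exception being shOFD1 replicate 2. ATF3, a stress-induced factor, rose by 0.87 (limma adjusted p = 0.041, and 0.055 to 0.14 without control replicate 1, control replicate 2, shOFD1 replicate 1 or shOFD1 replicate 3). PHGDH, the first enzyme of serine synthesis, fell by 0.49 in log2 (limma adjusted p = 0.027, and 0.07 to 0.094 without any one sample but shOFD1 replicate 2). With TPM scaling ATF4 (0.089), ASNS (0.12) and ATF3 (0.094) missed the threshold, as did PRDX3 (0.068), MSRB1 (0.052), FBXL5 (0.067) and SAT1 (0.15) of the redox lists (limma adjusted p-values).

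**Figure D4:**
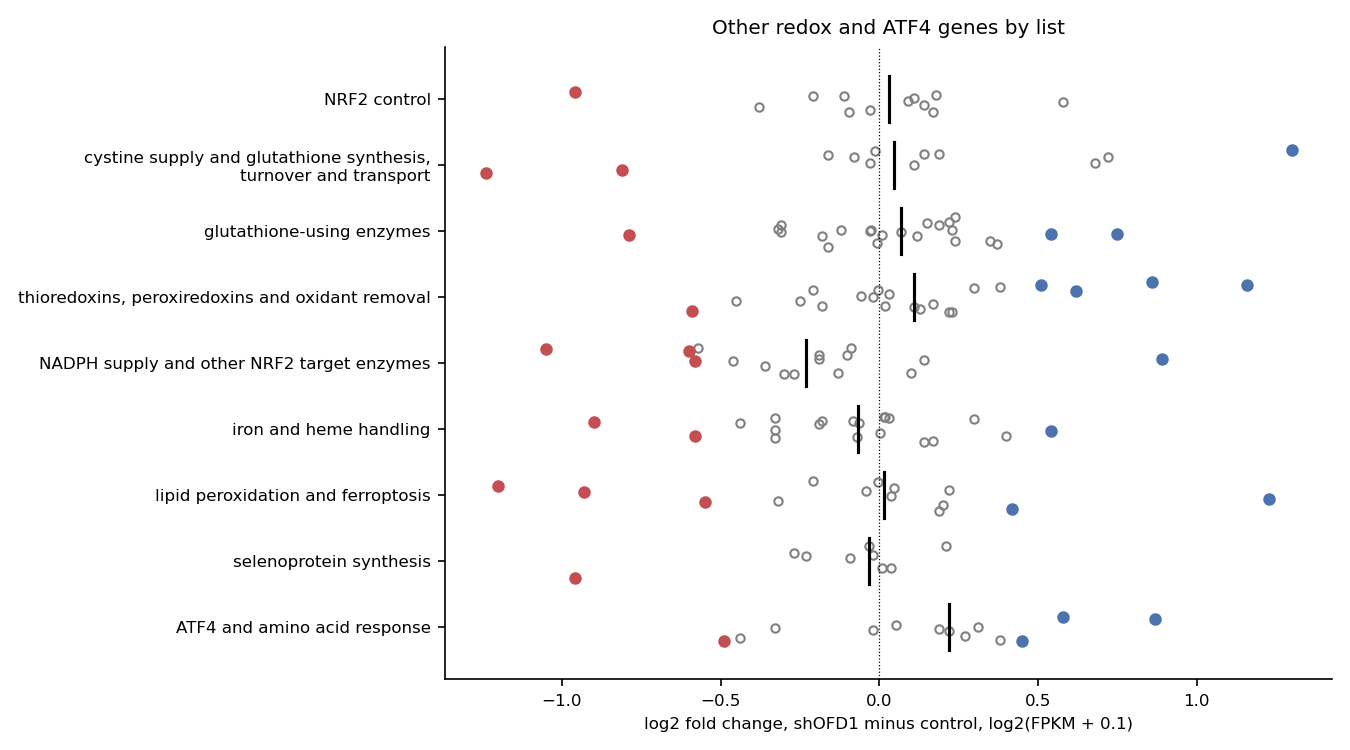
Log2 fold change (x axis, shOFD1 minus control, of FPKM + 0.1) of the tested genes of each list (rows), with filled red points for genes called lower, filled blue points for genes called higher (limma adjusted p under 0.05), open points for the rest and a black line at the median of the list. The list of NADPH supply and other NRF2 target enzymes has its median at -0.23 and 13 of 16 genes below 0, and the other 7 redox lists have medians between -0.066 and 0.11. All lists were chosen with earlier results of these data known.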

How the data were processed

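RNA of 3 control and 3 shOFD1 samples was sequenced by the authors. The methods name a directional NEBNext library kit, and the labels also name a TruSeq kit. Per the labels' processing notes, reads were aligned to the human genome with HISAT2 2.0.5 and transcripts were quantified with StringTie (version not given in the sources used here), and the deposited table holds FPKM per gene for each sample, with coordinates on GRCh38. The table has no read counts, so depth per sample is unknown, and whether counting used strand is not given in the sources used here. All 6 value columns were used, and groups were taken from the sample labels. The correlation of deviations between same-numbered samples was at most 0.058, so samples were not paired.

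FPKM was transformed to log2(FPKM + 0.1). Genes on patch sequences and genes with a mean under 1 FPKM were left out, and 12025 genes were fitted with limma 3.58.1 (variance trend, two-sided, Benjamini-Hochberg adjustment) in R 4.3.3. The script was tested on simulated data. The 10 genes and all gene lists were chosen with earlier results of these data known. From each list, up to 5 called genes with the smallest p and groups that did not overlap were named, beside 12 partners followed whatever their values and the 5 genes most correlated with SLC7A11. The values of 1 gene chosen by this rule are not reported here. Pseudocount, filter, scaling, trend, sample weights, a block for replicate number and each left-out sample were tried as alternatives. Promoter sequences are from RefSeq, from 250 bases upstream to 50 bases downstream of each start.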

Additional observations from a re-analysis of the deposited data

How the results depend on the processing

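Of 1094 values of 69 results under 16 alternatives, none changed direction while called, and 877 were taken as kept. For counts of genes this meant a count near the main one. For genes of the set it meant a move smaller than the spread, and for other genes the same side of the threshold. Genes that were not called could change sign and still be taken as kept. The log2 fold change of SLC7A11 was -1.01 with a pseudocount of 1. With no filter on the mean, 1083 genes were called, 7 of the other redox genes lower and 6 higher. With array weights 3956 genes were called (2263 lower and 1693 higher), 22 of the other redox genes lower and 20 higher. With TPM scaling the split was 1990 lower and 272 higher, and 6 of the other redox genes were higher. After quantile normalization it was 1311 lower and 1093 higher, and with median-of-ratios scaling 1299 lower and 857 higher, against 1429 lower and 610 higher in FPKM as deposited. With each sample left out, 1138 (without control replicate 3) to 2863 (without shOFD1 replicate 2) genes were called, with 9 to 18 of the other redox genes lower and 5 to 15 higher. Of 28 list genes chosen by the naming rule and called, 12 kept the call with each sample left out. With a replicate block 2296 genes were called, FTL became called (limma adjusted p = 0.029), and 15 of the other redox genes were lower and 13 higher. Same-numbered samples correlated at 0.058, 0.048 and 0.011 in their deviations, and control replicate 3 correlated better with shOFD1 replicate 2 (0.026) than with its own number. With no filter, 15 of the 28 missed the threshold, with limma adjusted p-values from 0.059 (SLC25A40, SAT1) to 0.19 (ATF3), as did MSRB1, SLC48A1, SAT1, ACSL4, PHGDH and ATF4 without the variance trend (0.051 to 0.085). SLC48A1 and ACSL4 missed it with median-of-ratios scaling (0.057, 0.059) and after quantile normalization (0.095, 0.06). A filter at 5 FPKM gave no value for OFD1, SLC7A11, GCLM, CHAC1, SLC25A40, GSTCD, SLC40A1, PTGS2, LRP8 and ATF3. Without read counts, the counting error of genes near 1 FPKM is unknown.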
